A study of Mus musculus with 22 samples.

Results

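Transcripts of 10 genes of the cytosolic heat shock chaperone system were followed across 22 single mouse astrocytes. The genes were Hsp90aa1, Hsp90ab1, Hspa8, Hspa1a, Hspa1b, Hspa4, Hspb1, Dnajb1, Hsph1 and Hsf1, picked by symbol from a table of 23453 genes, and all 10 had a read in at least 5 cells, as did 12719 genes of the table. The astrocytes were grown as primary cultures from the cortex of C57BL/6 pups aged P0-P1, with no transgene, and their calcium signal was imaged while EtOH was applied at 100 mM for 3 min. S-type astrocytes answered with a slow and sustained rise (6 cells), T-type with a sharp transient (6 cells), M-type with a mixture of both patterns (5 cells), and NR, "No Response", with no rise above threshold (5 cells). Per the study's methods NR astrocytes met EtOH as well, so no group is free of it, and each cell was drawn into a glass pipette and its RNA amplified through 2 rounds. The question put to these genes was whether their levels set the calcium response types apart.

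Values are counts of reads. A cell held between 2937786 and 22131076 reads, and a normalized count is the count divided by the cell's size factor, the median ratio of its counts to the geometric mean over 3670 genes read in every cell. The level of a type is the mean normalized count of its cells. No label names the animal or culture of a cell, so each response type counted as 1 sample, and ratios between types carry no test and no error. The spread over cells is given instead, with the range on leaving out each cell in turn. That range shows the pull of single cells and is not a confidence interval. Reads carried no molecular identifiers, so the intervals given for summed reads cover counting error only. T-type cells J163_18 and J162_16 stood apart, with size factors of 0.183 and 0.276 against 0.548 to 2.31 elsewhere, and J162_16 had a read for 6319 genes, the fewest of the 22 cells. Scaling mattered for this reason. The median log2 ratio of all genes between T-type and S-type was -0.07 with size factors and -0.55 with CPM, the pooled reads of each type scaled to 1 common total, and between T-type and NR it was -0.05 and -0.52. Astrocyte markers had reads in every type (11 or 12 of 12 per type, Gjb6 being at 0 outside S-type), and their median share of reads was 0.667% in NR, 0.394% in S-type, 0.322% in M-type and 0.237% in T-type. Marker shares of other cells reached 0.030% for microglia, 0.020% for endothelium and 0.208% for neurons in J151_5. They reached 0.333% for the oligodendrocyte lineage in J163_18 and 0.741% for mural cells and fibroblasts in J155_9. The neuron share exceeded the astrocyte share in J151_5 (0.139% for astrocytes). The mural and fibroblast share exceeded it in J155_9 (0.150% for astrocytes), J161_9, J165_23, J172_23 and J186_5. Sox10, Slc17a7, Cldn5, Cdh5 and Rgs5 had no read in any cell.

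Heat shock proteins keep other proteins folded. HSP70 proteins bind unfolded stretches with the help of J-domain partners such as Dnajb1 and of nucleotide exchange factors such as the HSP110 proteins, and HSP90 proteins take over clients near their final fold, among them kinases and steroid receptors. Hsf1 is the transcription factor that raises the inducible members under stress, by binding repeats of the letters GAA and TTC before their start. In the brain, astrocytes are known to make Hspb1 and inducible HSP70 strongly after injury or heat, whereas Hspa8 and Hsp90ab1 serve in unstressed cells too.

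The members lie on 7 chromosomes of GRCm38, the build of the alignment, with positions from GENCODE vM21. The constitutive-leaning Hsp90ab1 spans chr17:45567775-45573271 on the minus strand and its stress-inducible paralog Hsp90aa1 chr12:110690605-110702728, also minus. Hspa8, the constitutive cytosolic HSP70, is at chr9:40800984-40810087 on the plus strand. The inducible Hspa1a (chr17:34969190-34972156) and Hspa1b (chr17:34956436-34959238) are single-exon neighbours on the minus strand. The HSP110 genes Hspa4 and Hsph1 are at chr11:53259814-53300457 and chr5:149614287-149636376, both minus, the HSP40 gene Dnajb1 at chr8:83608193-83612653, the small heat shock gene Hspb1 at chr5:135887919-135889563 and Hsf1 at chr15:76477422-76501913, the last 3 on the plus strand.

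Sequence before the start was at hand for Hspa1a, Hspa1b, Hspa4, Hspb1, Dnajb1 and Hsph1 (RefSeq, GRCm38.p6), and the heat shock element letters GAANNTTC or TTCNNGAA, each of which reads the same on both strands, were searched in the 250 bases before it. These letters stood in 12.8% of 32851 such windows. Hspa1a and Hspa1b each held 1 match, beginning 104 bases before the start, Hspb1 held 2 (from 117 and 97 bases before it), and Hsph1 held 1. Hspa4 and Dnajb1 held none. A run of 3 alternating units of GAA and TTC at the same spacing stood in 0.466% of all windows and in no window of these genes. Of the members with a match, the stretches of Hspa1a (chr17:34972206-34972315, minus strand), Hspa1b (chr17:34959288-34959397, minus strand) and Hspb1 (chr5:135887757-135887866, plus strand) are printed and that of Hsph1 is not. Capitals mark the GAA and TTC of each match.
Hspa1a: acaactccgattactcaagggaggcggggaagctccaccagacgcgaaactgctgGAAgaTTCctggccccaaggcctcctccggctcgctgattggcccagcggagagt
Hspa1b: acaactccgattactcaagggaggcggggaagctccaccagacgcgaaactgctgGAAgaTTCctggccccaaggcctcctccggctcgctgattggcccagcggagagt
Hspb1: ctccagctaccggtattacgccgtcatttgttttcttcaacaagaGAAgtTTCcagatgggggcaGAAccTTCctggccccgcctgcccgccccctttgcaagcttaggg
The Hspa1a and Hspa1b stretches are the same over all their 110 bases. Over the whole window the genes share 247 of 250 bases, and of the 1923 coding bases of Hspa1a 1916 are matched in order in Hspa1b, with a longest identical run of 638. That likeness limits the counts, since the authors kept uniquely aligned reads. Of all 75-base windows of the annotated transcripts, the length of 1 read, 61.7% of those of Hspa1a and 55.8% of those of Hspa1b also occur in another gene, mostly the other of the pair (52.7% for Hspa1a). The share was 46.4% for Hspb1 (all with Hsp25-ps1), 42.8% for Hsp90aa1 (mainly Gm12346), 33.0% for Hspa8 (mainly Gm15459) and 0.537% for Hsp90ab1. It was 0 for Hspa4, Dnajb1, Hsph1 and Hsf1. Levels of Hspa1a, Hspa1b, Hspb1, Hsp90aa1 and Hspa8 are therefore uncertain against those of other genes. A shared window is not always a lost read, because reads were paired and the mate may lie in unshared sequence. Windows were compared between transcripts on either strand, so genes that overlap at the same place also count as sharing. Which reads were lost, and how reads spread along a transcript in each cell, was not examined.

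Per kilobase of exon, the scale on which genes can be compared, the 2 HSP90 genes led. The median over 22 cells was 5205 normalized counts per kilobase for Hsp90aa1, 4799 for Hsp90ab1, 2403 for Hspa8, 763 for Hspa4, 509 for Dnajb1, 452 for Hsph1 and 197 for Hspb1. At the bottom of this order stood Hspa1a (2.95), Hsf1 (1.06) and Hspa1b (0.262). The ranges of neighbours in this order overlapped without exception. Within single cells, however, Hspa8 was above Hspa4 per kilobase in 22 of 22 cells and below Hsp90ab1 in 20, whereas Hsp90ab1 was above Hsp90aa1 in 14. Hsp90aa1, Hsp90ab1, Hspa8, Hspa4, Dnajb1 and Hsph1 had reads in all 22 cells, Hspb1 in 21, Hspa1a in 14, Hsf1 in 14 and Hspa1b in 12.

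**Figure D1:**
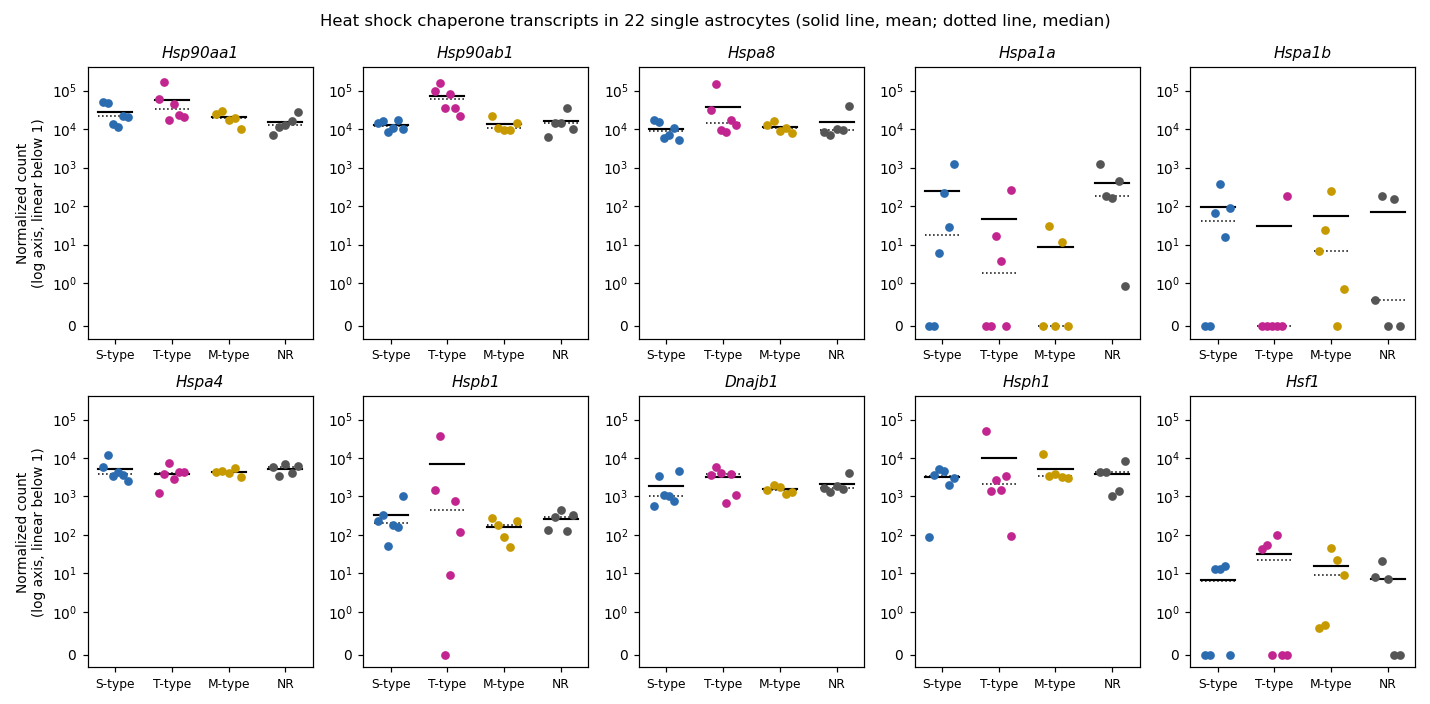
Normalized counts of the 10 chaperone genes (vertical axis, logarithmic above 1 and linear below it) in each of 22 astrocytes, grouped by calcium response type; each point is a cell, the solid line the mean and the dotted line the median. The 6 T-type points of Hsp90ab1 lie between 21379 and 154334, all above the 6 S-type points, and the points of Hspa1a, Hspa1b and Hsf1 scatter down to 0.

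All 10 members together took a larger share of the reads in T-type astrocytes. Their summed share, which needs no size factor, was 0.859% on average in T-type (lowest 0.468%, median 0.919%, highest 1.18%), 0.496% in S-type (0.366%, 0.493% and 0.634%), 0.493% in M-type and 0.473% in NR. The 5 M-type cells had 0.601%, 0.509%, 0.445%, 0.488% and 0.421%, and the 5 NR cells 0.289%, 0.426%, 0.442%, 0.611% and 0.597%. The types overlapped. The T-type cells J161_9, J162_16 and J164_19 exceeded 1%, and no other cell did, whereas J163_18 and J166_25, at 0.468% and 0.526%, lay inside the range of the other types. The 2 HSP90 genes supplied most of these reads, on average 70.3% in T-type, 64.0% in S-type, 59.7% in M-type and 53.8% in NR, and Hspa8 supplied 16.5%, 16.4%, 20.2% and 23.5%. The sum thus mainly follows these abundant genes. A share also depends on the reads of all other genes in the cell, and no share of other genes of like abundance was set beside it.

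**Figure D2:**
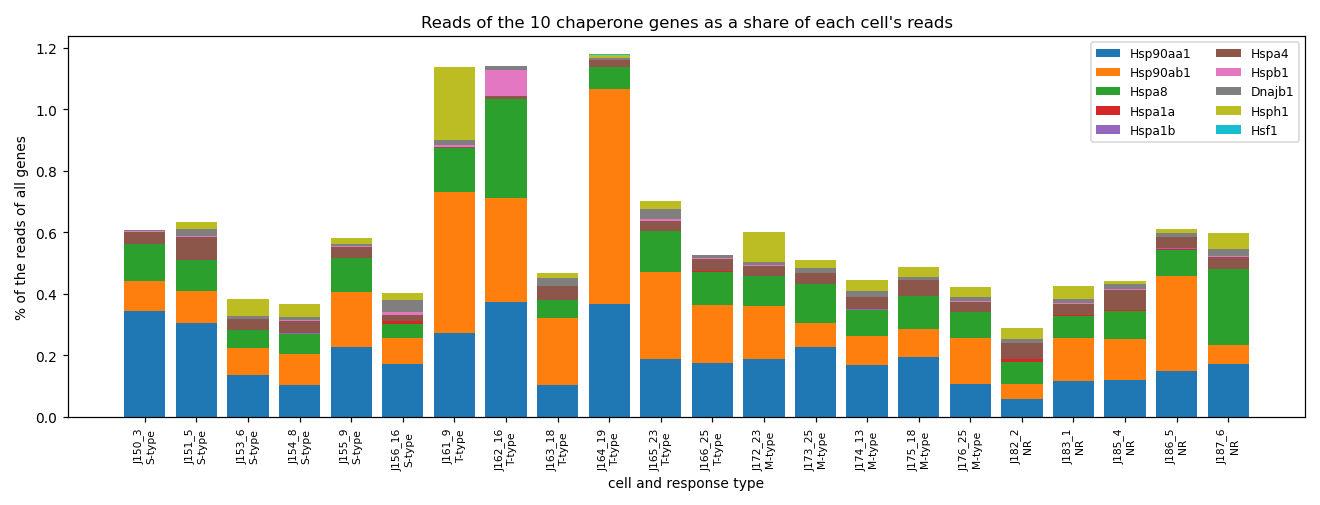
Reads of the 10 chaperone genes as a percent of all gene reads (vertical axis) in each cell, stacked by gene and ordered by response type. The stacks of the T-type cells J161_9, J162_16 and J164_19 stand above 1%, but their makeup differs: Hsp90ab1 fills most of J164_19, Hspa8 and Hspb1 are thick in J162_16 and Hsph1 in J161_9.

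Between T-type and S-type, 6 of the 10 members were at least 2-fold higher in T-type (Hsp90aa1, Hsp90ab1, Hspa8, Hspb1, Hsph1 and Hsf1) and 2 at least 2-fold lower (Hspa1a and Hspa1b). Without J162_16 the 6 became 3, and without J154_8 or J156_16 the 2 became 1. Of all 12719 genes 26.0% were 2-fold higher and 32.2% 2-fold lower. The median log2 ratio of the members was 1.36, and with pooled CPM it was 0.54 with 4 members 2-fold higher and 2 lower, where 16.4% of all genes were higher and 39.9% lower. Against NR the T-type level was at least 2-fold higher for the same 6 genes and lower for Hspa1a and Hspa1b, with a background of 28.6% higher and 32.4% lower and a median of 1.34 for the members. With pooled CPM that median was 0.68, with 3 members higher and 1 lower, where 18.6% of all genes were higher and 40.3% lower. Between S-type and NR no member was 2-fold apart in either direction, where 25.1% of all genes were higher and 22.4% lower in S-type. Between M-type and NR Hsf1 was higher and Hspa1a lower, where 19.8% of all genes were higher and 28.1% lower in M-type. T-type, S-type and M-type were compared with the same 5 NR cells, so those 3 contrasts share their reference. A stricter view asks that every cell of one type lie above, or below, every cell of the other. Hsp90ab1 between T-type and S-type was the only member to meet it (1 of 10, above), where 0.126% of all genes lay above and 0.645% below. No member met it for T-type and NR (0.189% of all genes above, 0.802% below), for S-type and NR (0.204% above, 0.204% below) or for M-type and NR (0.275% above, 0.322% below).

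**Figure D3:**
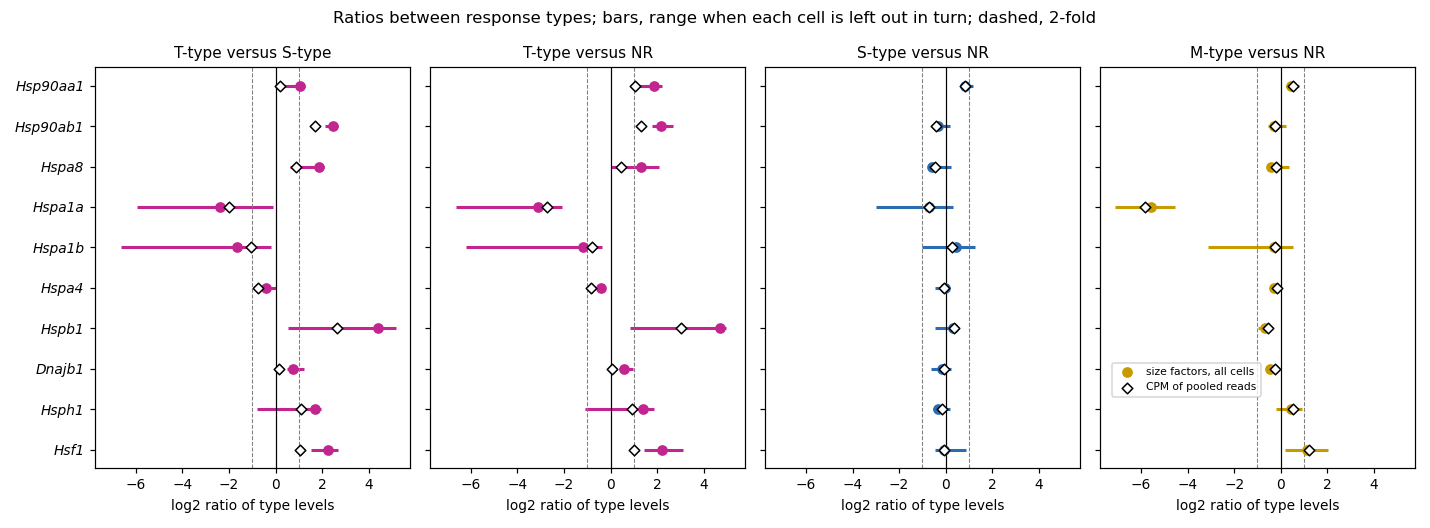
log2 ratio of the type levels (horizontal axis) of each chaperone gene in 4 contrasts; filled circles are ratios from size factors, bars their range when each cell of either type is left out in turn, open diamonds the ratios of pooled CPM, and dashed lines 2-fold. Hsp90ab1 lies beyond 2-fold in both T-type contrasts under every setting drawn, and the long bars belong to Hspa1a, Hspa1b, Hspb1 and Hsph1.

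Hsp90ab1 was the member with the firmest separation. In T-type astrocytes its normalized count was 21379 in the lowest cell (J166_25), 59567 at the median and 154334 in the highest (J162_16). In S-type it was 8601, 12267 and 17387. The M-type cells had 22270, 10661, 9387, 9360 and 14190, and the NR cells 6165, 14255, 14528, 35130 and 9919. Every T-type cell was thus above every S-type cell, while M-type cell J172_23 and NR cell J186_5 reached into the T-type range. The level in T-type was 5.59-fold that in S-type, a log2 ratio of 2.48 (2.10 to 2.67 when each cell was left out), and 2.55 above the median of all genes. With pooled CPM the log2 ratio was 1.68, or 2.23 above the median of all genes, and the cells remained apart, the lowest T-type cell having 1870 CPM and the highest S-type cell 1760. Against NR the log2 ratio was 2.16 (1.78 to 2.67) and 1.28 with pooled CPM, and without J186_5 the T-type cells lay above the other 4 NR cells. S-type and M-type lay near NR, with log2 ratios of -0.32 and -0.28.

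Hsp90aa1, whose transcript is induced by heat in many tissues, followed a different order, T-type, S-type, M-type, NR. Its normalized count in T-type was 16773 in the lowest cell, 33664 at the median and 169591 in the highest, and in S-type 11214, 21661 and 49173. Cells of the M-type had 24241, 30186, 17317, 19978 and 10323, and the NR cells 6899, 11603, 12946, 16610 and 28166. Neighbouring types in this order overlapped. J162_16 alone held 50.8% of the T-type sum of normalized counts, and without it the log2 ratio of T-type to S-type went from 1.03 to 0.26. With pooled CPM of all cells that ratio was 0.18, and with TMM factors 0.84, both inside 2-fold. The ratio to NR was 1.87, 1.11 without J162_16 and 1.02 with pooled CPM, and when J187_6 was left out of NR every T-type normalized count lay above the remaining NR cells, J163_18 (16773) only just above J186_5 (16610). In CPM that did not hold, J163_18 having 1047 and NR cells J183_1, J185_4 and J186_5 having 1151, 1196 and 1475. S-type was above NR by 0.84 on the log2 scale (0.59 to 1.19), short of 2-fold.

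Because both HSP90 genes are read in the same cell, their ratio is free of depth and scaling. Reads of Hsp90ab1 over reads of Hsp90aa1 had a median of 1.60 in T-type (0.910 to 2.06) and 0.561 in S-type (0.285 to 0.939), with J162_16 the lowest T-type cell. In M-type the 5 cells had 0.919, 0.353, 0.542, 0.469 and 1.37, and in NR 0.894, 1.23, 1.12, 2.11 and 0.352. Hsp90ab1 exceeded Hsp90aa1 in 0 of 6 S-type, 5 of 6 T-type, 1 of 5 M-type and 3 of 5 NR cells. S-type and T-type overlapped in this ratio only through J162_16 and the highest S-type cell, J154_8 (0.939), while NR spanned nearly the whole range. Since 42.8% of the read-length windows of Hsp90aa1 are shared with other genes, the value 1 has no meaning of its own here. The order of cells is free of this only if reads spread alike along the transcript in each cell, which was not tested.

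**Figure D4:**
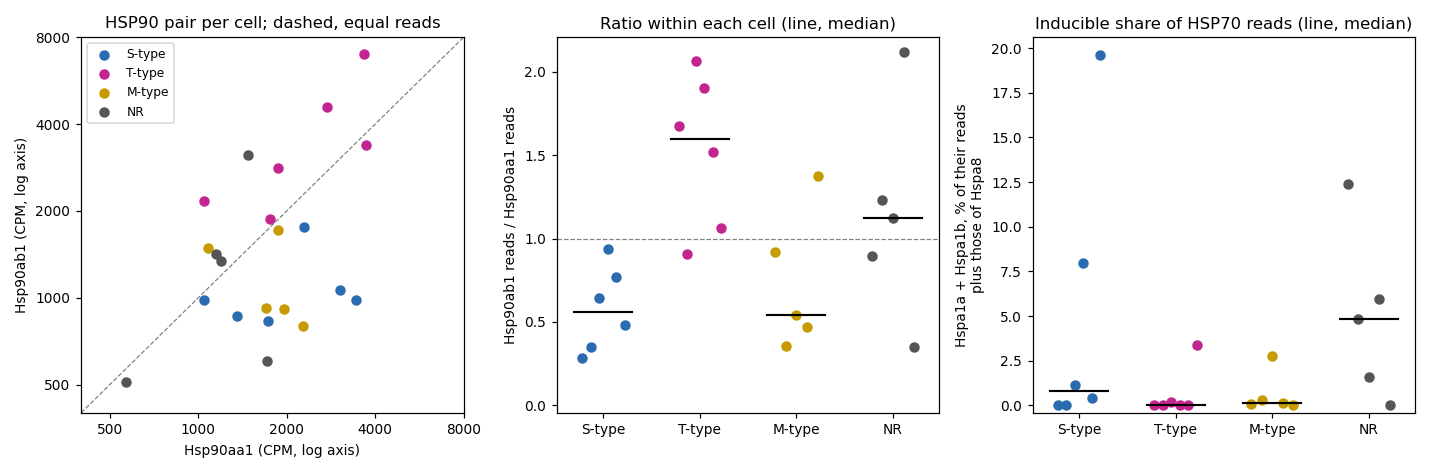
Left, CPM of Hsp90ab1 against Hsp90aa1 on logarithmic axes, 1 point per cell, with a dashed line where both have equal reads; middle, their read ratio per cell; right, reads of Hspa1a and Hspa1b as a percent of their sum with Hspa8; lines are medians. The S-type cells lie under the dashed line and 5 of 6 T-type cells above it, and the inducible share is above 1% in 4 of 5 NR cells but in 1 of 6 T-type cells.

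Hspa8 encodes the HSP70 protein of unstressed cells. Its normalized count in T-type was 8272 in the lowest cell, 14617 at the median and 147001 in J162_16, which held 65.4% of the T-type sum. In S-type it was 5353, 8947 and 16753. In the 5 M-type cells it was 12599, 16678, 8663, 10732 and 7976, and the NR cells 8605, 7223, 9938, 9378 and 40822. Apart from J162_16, J187_6 in NR and J161_9 in T-type (30634), no cell went above 16824. The log2 ratio of T-type to S-type was 1.88, and without J162_16 it was 0.61. To NR it was 1.30, falling to 0.03 without J162_16 and reaching 2.09 without J187_6, which held 53.7% of the NR sum. Medians over cells gave 0.71 and 0.64, and pooled CPM 0.89 and 0.44, all inside 2-fold.

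The inducible HSP70 genes were nearly silent in most cells. Hspa1a had 3283 reads in NR (95% Poisson interval 3172 to 3397), 66 in M-type (51.0 to 84.0), 409 in T-type (370 to 451) and 1934 in S-type (1849 to 2022). Its normalized count in S-type was 0 in the lowest cells, 17.2 at the median and 1218 in J156_16, and in T-type 0, 1.82 and 259 in J166_25. The NR cells had 1217, 178, 163.2, 440 and 0.927, and the M-type cells 0, 30.8, 0, 11.4 and 0. Thus 4 of the 5 NR cells lay above every M-type cell, and J187_6 did not. The level in M-type was 47.4-fold lower than in NR, a log2 ratio of -5.57 (-7.13 to -4.53), -5.85 with pooled CPM, and without J187_6 the cells of the types no longer overlapped. T-type was lower than NR by a log2 ratio of -3.11 (-6.64 to -2.07), with J166_25 holding 92.8% of its T-type sum. T-type against S-type was at -2.40, and ranged from -5.93 without J166_25 to -0.11 without J156_16, with -3.23 by medians over cells.

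Hspa1b was sparser. It had 687 reads in S-type, 586 in NR, 572 in M-type and 278 in T-type. All 278 T-type reads came from J166_25, whose normalized count was 178. J154_8 led in S-type with 385, and the M-type cells had 6.88, 23.8, 246, 0 and 0.864, those of NR 0.607, 187.2, 0, 152.5 and 0. The log2 ratio of T-type was -1.64 to S-type and -1.20 to NR, ranging from -6.65 without J166_25 to -0.20 without J154_8, and from -6.21 without J166_25 to -0.37 without J183_1. With pooled CPM the ratio to NR was -0.82, inside 2-fold. Hspa1a exceeded 10 CPM in 7 cells and Hspa1b in 5, and 4 cells had both above it. J182_2 had 2005 reads of Hspa1a and 1 of Hspa1b, whereas J174_13 had 525 of Hspa1b and 0 of Hspa1a. Summed reads of the pair exceeded 10 CPM in 4 of 5 NR, 2 of 6 S-type, 1 of 6 T-type and 1 of 5 M-type cells. As a percent of the reads of Hspa1a, Hspa1b and Hspa8, the inducible pair had a median of 4.81% in NR, 0.780% in S-type, 0.106% in M-type and 0.0220% in T-type. Over the pooled reads it was 3.71% in NR, 3.52% in S-type, 0.624% in M-type and 0.599% in T-type, so the distance between NR and S-type in the medians was not seen there. It ran up to 19.6% in J156_16 and to 12.4% in J182_2, and 2 S-type and 3 T-type cells were at 0. J156_16 also had the largest share of reads on 19 immediate early genes, 0.343%, where the 22 cells began at 0.015%. What part this had in its Hspa1a level was not tested.

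Of the HSP110 genes, whose proteins release nucleotide from HSP70, Hspa4 had the narrowest span of normalized counts among members and Hsph1 a wide one. The level of Hspa4 was 5334 in NR, 5256 in S-type, 4336 in M-type and 3950 in T-type. Its 22 cells ran from 1234 in J161_9 to 11962 in J151_5, a span of 9.69-fold, where that of Dnajb1 was 10.3-fold and that of Hsp90ab1 25.0-fold. In CPM, where Hsp90aa1 ran from 570 to 3722, Hspa4 had the wider span, from 56.4 to 775. Its log2 ratios were -0.41 (T-type to S-type), -0.43 (T-type to NR), -0.02 (S-type to NR) and -0.30 (M-type to NR), all within 2-fold. Hsph1, a heat-inducible member, ran from 89.7 in J150_3 to 51614 in J161_9, a span of 576-fold. In T-type its lowest, median and highest cells had 96.1, 2057 and 51614, and in S-type 89.7, 3401 and 5279. The M-type cells had 12457, 3306, 3731, 3269 and 3105 and the NR cells 4232, 4451, 1002, 1370 and 8291. T-type was higher than S-type by 1.70 on the log2 scale with J161_9, which held 85.2% of its T-type sum, and lower without it, at -0.80. To NR the same ratios were 1.38 and -1.11.

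Dnajb1, the J-domain partner that hands clients to HSP70, was within 2-fold by the means of the types and not by their medians. Its normalized count was 657, 3729 and 5716 at the lowest, median and highest T-type cell, and 553, 1049 and 4597 in S-type. The M-type cells had 1481, 2013, 1785, 1144 and 1274, and the NR cells 1680, 1320, 1919, 1578 and 4048. Of the 6 T-type cells 4 lay above all M-type cells, and the other 2 did not. The log2 ratios of the type levels, which are means, were 0.74 (T-type to S-type), 0.59 (T-type to NR), -0.15 (S-type to NR) and -0.45 (M-type to NR). With medians over cells in place of means they were 1.83 (T-type to S-type) and 1.15 (T-type to NR), both beyond 2-fold, and with pooled CPM 0.13 and 0.06. In S-type, J156_16, the cell with the most Hspa1a, also had the most Dnajb1 and the most Hspb1.

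Hspb1, the small heat shock protein HSP25 that holds unfolded clients without using ATP, had the largest ratios of the members in both T-type contrasts, and they depended on 1 cell. In T-type its normalized count was 0 in J163_18, 9.12 in J164_19, 444 at the median and 38442 in J162_16, which held 94.3% of the T-type sum. S-type ran from 53.0 through 204 to 1009. M-type cells ranged over 273, 182.8, 89.1, 47.7 and 224, and the NR cells 131, 294, 438, 126 and 332. T-type thus contained both the highest and the lowest values of all 22 cells. The log2 ratio of T-type to S-type was 4.38, and 0.52 without J162_16, and to NR it was 4.68 and 0.82. Averaging log2(normalized count + 1) over cells turned both ratios to the other side of 0, at -0.21 and -0.29.

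Hsf1, the factor of the heat shock response, was read at the margin of detection, with 378 reads in all and none in 8 of 22 cells. It had 56 reads in S-type (95% Poisson interval 42.3 to 72.7), 60 in NR (45.8 to 77.2), 100 in T-type (81.4 to 122) and the rest in M-type (138 to 189). In T-type 3 cells had normalized counts of 43.6, 54.4 and 98.5, above all S-type and NR cells, and the other 3 were at 0. In M-type the cells had 0.626, 0.700, 45.0, 22.3 and 9.07 and the NR cells 7.89, 21.0, 7.19, 0 and 0. T-type was higher than S-type by 2.24 on the log2 scale and higher than NR by 2.18 (1.44 without J164_19, 3.12 without J183_1), with 1.07 and 0.99 by pooled CPM. M-type was 1.11 above NR, 0.18 without J174_13 and 2.04 without J183_1.

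The members did not move as a block from cell to cell. Over the 22 cells the Spearman correlation of normalized counts between members ran from -0.59 to 0.75 with a median of -0.06 over 45 pairs, 20 of them above 0. All values of a cell share its size factor, its response type and its amplification, and no p is given. Hsp90aa1 and Hspa8 were the most alike (0.75, and above 0 within each type), followed by Hspb1 with Dnajb1 (0.54) and Hspa1a with Hspa1b (0.50). The inducible HSP70 genes went against the abundant members over the 22 cells, Hspa1b against Hspa8 at -0.59 and Hspa1a against Hsp90aa1 at -0.55. Within M-type these pairs were at 0.2 and 0.67, and within each of the other types they were below 0. Among 3666 genes read in every cell, those most like Hsp90aa1 were Ptma (0.84), Rps21 (0.80) and Rpl17 (0.80), those most like Hsp90ab1 were Rplp0 (0.84), Rps10 (0.84) and Rpl37 (0.84), and those most like Hspa8 were H3f3a (0.78), Actg1 (0.77) and Rpl14 (0.76). The middle 95% of the correlations with these genes ran from -0.50 to 0.60 for Hsp90aa1, from -0.53 to 0.62 for Hsp90ab1 and from -0.51 to 0.58 for Hspa8. The normalized counts of these members were lower in cells with more genes read, with correlations of -0.58, -0.61 and -0.66, while those of Hspa1b and Hspa1a were higher in such cells, with 0.69 and 0.39. The CPM of Hsp90aa1, Hsp90ab1 and Hspa8 had correlations of -0.25, -0.35 and 0.10 with total reads. What part the number of genes read had in these levels was not tested.

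**Figure D5:**
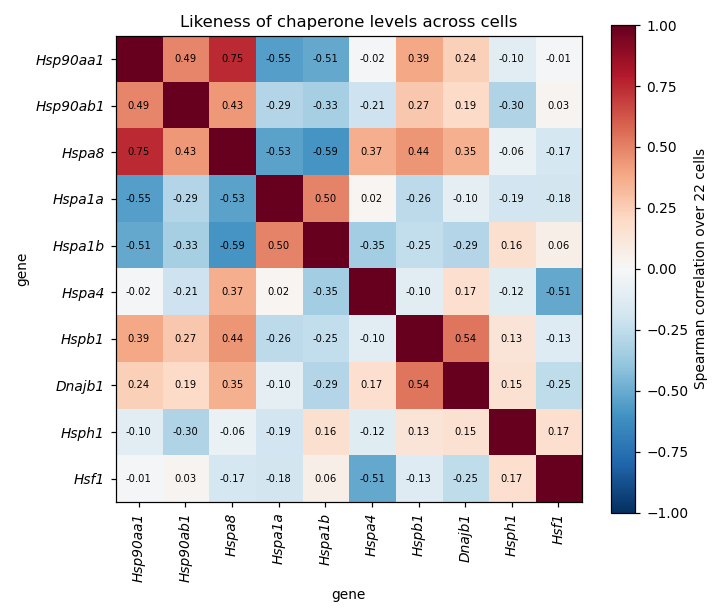
Spearman correlation of normalized counts over 22 cells between each pair of chaperone genes, coloured from -1 (blue) to 1 (red) with the value printed. The block of Hsp90aa1, Hsp90ab1 and Hspa8 is positive, up to 0.75, and Hspa1a and Hspa1b are negative to all 3, down to -0.59.

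HSP90 works with co-chaperones, and the transcripts of these were looked at beside it. Of 15 such genes 4 were 2-fold higher and 3 lower in T-type than in S-type, with a median log2 ratio of 0.51, where 26.0% and 32.2% of all genes were higher and lower. Against NR 8 were higher and 2 lower, with a median of 1.12, where the shares of all genes were 28.6% and 32.4%. Pooled CPM gave medians of 0.33 and 0.44. Ahsa2, which like its better known relative stimulates the ATPase of HSP90, had a level of 4401 in T-type, 363 in S-type and 610 in NR, log2 ratios of 3.60 (2.86 to 3.86) and 2.85 (2.11 to 3.33), although 1 T-type cell was at 0.648. Ptges3, the p23 co-chaperone, was 3.15 above S-type on the log2 scale, but 0.42 without J162_16. Sugt1, which links HSP90 to ubiquitin ligases, was higher by 1.55 (0.77 to 1.93). Fkbp5, the immunophilin induced by glucocorticoids, had 1052 reads in M-type, 925 in S-type, 123 in NR and 1 in T-type, and without J151_5 the log2 ratio of S-type to NR went from 3.54 to -0.25. Its M-type reads all came from J173_25. S-type and M-type had medians of 0.21 and 0.19 against NR for these 15 genes, where those of all genes were 0.03 and -0.20.

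Of 6 further cytosolic HSP70 and HSP110 genes, 3 had a read in at least 5 cells. Hspa14, an HSP70 of the ribosome-associated complex, was lower in T-type, with 5.45 to 737 normalized counts over 6 cells. S-type had 766 to 6101 and NR 902 to 3953, so no T-type cell reached into either range. Of all genes 0.645% lay wholly below S-type in this way and 0.802% wholly below NR. The log2 ratios were -2.98 (-3.45 to -2.46) and -2.74 (-3.21 to -2.35). T-type did not stand apart from M-type, whose Hspa14 counts ran from 1.25 to 1716, with a log2 ratio to NR of -0.99. Hspa2 was higher in T-type than in S-type by 2.88 (0.43 without J161_9), and lower than NR in S-type and M-type, at -1.83 and -1.67. The HSP110 gene Hspa4l had ratios between -0.32 and 0.77 in the 4 contrasts.

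The 14 J-domain genes showed no common direction, with 3 higher and 2 lower in T-type than in S-type (median 0.22) and 5 higher and 1 lower than in NR (0.32), beside shares of all genes of 26.0% and 32.2%, and of 28.6% and 32.4%. Dnaja1 and Dnaja2, class A partners of Hspa8, and the vesicle protein Dnajc5 stayed within 2-fold in all 4 contrasts. Dnajb4 was 3.49 above S-type in T-type and 1.49 without J161_9, while Dnajb14 was higher than NR by 2.56 in T-type and by 3.65 (2.90 to 4.62) in M-type. Dnajb2 had a log2 ratio of -2.72 between S-type and NR, and of -0.64 without J187_6. Among 9 exchange factors and HSP70 partners, 4 were higher and none lower in T-type than in S-type (median 0.68), and in S-type 3 were lower than in NR and none higher (median -0.88). Of all genes 26.0% and 32.2% were higher and lower in the first contrast, and 25.1% and 22.4% in the second. Bag1 had log2 ratios of 2.10 between T-type and S-type and -1.01 between S-type and NR, and Bag2 had 2.45 and -1.75, and Bag5 1.94 and -0.93. Single cells carried much of this. Bag1 had 1.21 between T-type and S-type without J161_9 and -0.62 between S-type and NR without J187_6. Bag2 had 1.38 without J164_19 and -0.60 without J186_5, and Bag5 had 1.30 without J164_19 and -0.34 without J187_6. These genes share the S-type cells in both ratios. Bag3, which pairs HSP70 with Hspb8 in autophagy, was lower in T-type than in NR by -1.06 (-1.39 to -0.42). Hspbp1 was lower in M-type than in NR by -2.14 (-3.89 to -1.25) on 84 and 274 reads.

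Of 9 other small heat shock genes 6 were read in at least 5 cells. Hspb8 and Cryab were the most read, with levels of 10666 and 3923 in NR, 6864 and 5295 in T-type, 6477 and 4661 in M-type and 6081 and 5052 in S-type, and neither was 2-fold apart in any contrast. Hspb11 had -0.28 between T-type and S-type, and -2.19 without J165_23. Hspb2, which lies beside Cryab in the genome, had 321 reads in T-type against 38 in S-type and 70 in NR, log2 ratios of 4.05 and 3.03 that were 2.67 and 1.65 without J161_9. Hspb6 had log2 ratios of 1.87 and 1.5, and 1.05 and 0.69 without J162_16. Of 6 other heat shock factors and regulators only Hsf2 and Hsbp1 were read in at least 5 cells. Hsbp1, a small protein that binds Hsf1, stayed within 2-fold, at -0.15 between T-type and S-type. Hsf2 had a level of 37.5 in NR, 114 in M-type, 178 in T-type and 192 in S-type, with log2 ratios to NR of 1.60 (0.97 to 1.90 on leaving out each cell), 2.25 and 2.36 (1.67 to 2.61), the T-type value being 0.08 without J162_16.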

How the data were processed

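The authors amplified the antisense RNA of single cells, made stranded TruSeq libraries, sequenced paired 75-base reads, placed them on GRCm38 by STAR and had VERSE count the exonic reads that aligned uniquely. Versions and the strand setting are not given in the sources used here. The deposited counts are whole numbers per gene and cell, without normalization. Cells were grouped by the response label, and all 22 columns were used.

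Size factors, levels and log2 ratios came from Python 3.11.15 (NumPy 2.4.6, pandas 2.3.3), Poisson intervals with SciPy 1.17.1, TMM factors with edgeR 4.0.16 under R 4.3.3 and figures with matplotlib 3.10.9. A gene entered the contrasts when at least 5 cells had a read of it, and where a type had none its level was replaced by the value of 3 reads in that type. Since cells are not replicates and no animal is named, no test between types was run. Dixon's ratio served only to flag outlying cells within a type. The steps were tested on simulated data. The members and lists were chosen with earlier results of these data known. Levels and ratios are of means over cells unless a median is named. All members are named, and of each other list the 3 genes with the highest mean level and, per contrast, the gene with the largest ratio at a mean level of at least 10. The authors' other measurements were not used here. The paper describes more than 1 time of collection after EtOH, and no label gives that of a cell.

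The alternatives were pooled CPM, mean CPM, TMM factors, the median over cells, the mean of log2(normalized count + 1), thinning to 2937786 reads, a pseudocount of 1, other filters and leaving out each cell.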

Additional observations from a re-analysis of the deposited data

Results flagged for a closer look

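Within each type the highest or lowest cell was compared with the others by Dixon's ratio, the gap to the nearest cell over the whole range of log2(normalized count + 1), in 44 groups of 5 or 6 cells. Were the values normal and the cells independent, chance would flag about 1 in 20 such groups, and 4 of 44 were beyond the 95% limit. Neither condition was checked, so a flag only marks a cell for a closer look. Hspa8 in NR had a ratio of 0.816, with 40822 normalized counts in J187_6 and 7223 to 9938 in the other 4 cells. Hspa1b in T-type had a ratio of 1, which is fixed by the ties, since J166_25 had 178 and the other 5 cells were at 0. Hsph1 in S-type had a ratio of 0.762, with 89.7 in J150_3 and 2004 to 5279 elsewhere. Hsph1 in M-type had a ratio of 0.868, with 12457 in J172_23 and 3105 to 3731 elsewhere.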

How the results depend on the processing

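Each type is 1 sample, with cells as its only units, and the counting intervals leave out amplification. The smallest library, J163_18 with 2937786 reads, limits what thinned cells can show, and Hsf1 with 378 reads and the T-type reads of Hspa1b, from 1 cell, are too few to order the types. Hsp90ab1 kept its direction in T-type against S-type and NR under each alternative, and its T-type and S-type cells stayed apart under CPM, TMM and on leaving out any cell. Ratios of at least 2-fold turned to the other side of 0 as follows, and the cause was not tested: Hspb1 to -0.21 (T-type to S-type) and -0.29 (to NR) with means of log2(normalized count + 1), Hsph1 to -0.73 and -1.04 with medians and to -0.46 (to NR) with those means, and Hspa1b to 0.035 (to NR) with medians. Leaving out each cell, Hsph1 ran from -0.80 to 1.96 and from -1.11 to 1.87. Members 2-fold higher in T-type than in S-type numbered 3 with mean CPM, 3 with means of log2 values and 3 without the T-type cells of smallest size factor, J163_18 and J162_16, a choice made after seeing the data, against 6. Against NR they numbered 3 with pooled CPM and 2 with means of log2 values, and members lower numbered 1 with pooled CPM and 1 without those 2 cells. Between S-type and NR medians gave 1 higher and 1 lower, as did means of log2 values (1 and 1), and between M-type and NR 0 were higher with means of log2 values and 0 with thinned cells. Leaving out each cell gave 3 (without J162_16) to 6 higher and 1 (without J154_8 or J156_16) to 2 lower between T-type and S-type. Between T-type and NR it gave 4 to 6 higher and 1 (without J162_16, J163_18, J164_19, J165_23, J183_1 or J186_5) to 2 lower. Between S-type and NR it gave 0 to 1 (without J154_8, J183_1 or J187_6) higher and 0 to 1 (without J154_8, J156_16 or J187_6) lower, and between M-type and NR 0 (without J174_13, J175_18, J186_5 or J187_6) to 1 higher and 1 to 2 (without J174_13) lower. Members lying wholly above numbered 0 to 1 in T-type against NR (Hsp90ab1 without J186_5, Hsp90aa1 without J187_6), and wholly below 0 to 1 in M-type against NR (Hspa1a without J187_6). Taking the types in the order S, T, M and NR from here on, the members' share of reads was 0.493%, 0.919%, 0.488% and 0.442% by the median, and 0.469% to 0.522%, 0.795% to 0.937%, 0.466% to 0.511% and 0.438% to 0.519% on leaving out each cell. Reads of Hsp90ab1 over Hsp90aa1 pooled by type gave 0.487, 1.38, 0.672 and 1.16, and the medians of that ratio were 0.480 to 0.641, 1.52 to 1.67, 0.505 to 0.730 and 1.01 to 1.18 without each cell. The inducible HSP70 share of pooled reads was 3.52%, 0.599%, 0.624% and 3.71%, and its medians ran from 0.399% to 1.16%, 0% to 0.0441%, 0.0804% to 0.216% and 3.21% to 5.38%. Of the members' single ratios, recomputed under each alternative, those of at least 2-fold had the other sign in 6 of 142 values under another setting and in 2 of 204 on leaving out 1 cell, and those within 2-fold in 10 of 158 and 28 of 236, such as Hspa1b between M-type and NR, from -0.29 to 3.50 with medians. No paired analysis was possible because replicate numbers were given in accession order, and no test between types was run.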
